A study of Mus musculus with 6 samples.

Results

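The ErbB receptors and their regulators were followed in the liver as 7 genes of the 22180 that the array table names with a single-gene probe set. They are the receptors Egfr, Erbb2, Erbb3 and Erbb4, the inhibitors Errfi1 and Lrig1, and the adaptor Grb7. All 7 were found, each with 1 probe set, and all 7 lay in the upper 50% of mean signal in which genes were tested. The set was chosen by pathway around Erbb3, whose KO and WT signals were already known to differ, and each probe set was selected on its mean signal over the 6 arrays. The values are therefore a description, and nothing is read from how many members differ. The livers came from 3 Gpr146 knockout (KO) males and 3 wild-type (WT) male littermates on the C57BL/6J background. The knockout is whole-body, so Gpr146, a G protein-coupled receptor, was missing from every tissue and not from the liver alone. Mice of both genotypes were on chow, 24 weeks old, fasted for 16 hours and then refed for 6 hours, and each liver was measured on 1 whole-transcript Affymetrix array. Signals are log2 values as deposited, and a difference is KO minus WT on that scale.

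ErbB receptors are receptor tyrosine kinases that form dimers when ligands of the EGF and neuregulin families bind outside the cell, and then recruit adaptors that feed the ERK and PI3K to AKT pathways. Erbb2 has no known ligand and acts as a partner, while Erbb3 has a weak kinase and signals through a partner, with many docking sites for PI3K. In hepatocytes Egfr and Erbb3 are the prominent members, and EGF receptor signalling is known for its part in liver regeneration. Errfi1 (also called Mig6) binds the kinase domain and blocks it and is itself induced by growth factors. Lrig1 is a membrane protein that lowers receptor levels, and Grb7 is an adaptor that docks on phosphorylated receptors.

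The arrays were alike in scale, with medians of 2.67 to 2.73 over all probe sets and correlations of 0.983 to 0.988 between any 2 of them. The probe set of the targeted gene, Gpr146, measured 3.87 to 4.61 in KO livers, against 5.56 to 5.96 in WT livers, a difference of -1.47 ± 0.19 (SE) with a limma adjusted p of 0.0702. The hepatocyte gene Alb was at 11.91 ± 0.01 in KO and 11.92 ± 0.02 in WT (SD, n = 3 each). The 11 hepatocyte markers tested had a median difference of 0.007, and the median over all 11090 genes tested was 0.027. In the comparison of KO with WT, 4 genes (0.0361% of those tested) passed an adjusted p under 0.05, and no member was among them. Without that adjustment 9.13% of genes had a limma p under 0.05, 6.16% as higher and 2.98% as lower in KO.

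Erbb3 was higher in every KO liver than in any WT liver. Its signal was 7.16, 7.21 and 7.38 in KO mice 1 to 3, against 6.61, 6.77 and 6.77 in WT mice 1 to 3. The lowest KO value lay 0.39 above the highest WT value, which is more than the whole range within KO (0.22) or within WT (0.16). The means were 7.25 ± 0.12 in KO and 6.71 ± 0.09 in WT (SD, n = 3 each). That is a difference of 0.54 ± 0.10 (SE; 95% interval 0.30 to 0.77), or 1.45-fold. It did not pass the threshold over all genes (limma adjusted p = 0.245).

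Grb7 stood higher in KO livers as well. Its signal was 7.70, 7.69 and 7.78 in KO mice 1 to 3, against 7.15, 7.50 and 7.23 in WT mice 1 to 3. The KO values spanned 0.09, the smallest range among the members in KO, and WT mouse 2 came closest to them, 0.19 below the lowest. The difference was 0.43 ± 0.11 (SE; 95% interval 0.18 to 0.69), or 1.35-fold, with a limma adjusted p of 0.343.

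Errfi1, the feedback inhibitor, was the member that ran the other way. Its signal was 9.50, 9.40 and 9.58 in KO mice 1 to 3, against 9.83, 10.09 and 9.77 in WT mice 1 to 3. All KO values lay below all WT values, with a gap of 0.19. The means were 9.50 ± 0.09 in KO and 9.90 ± 0.17 in WT (SD, n = 3 each), a difference of -0.40 ± 0.11 (SE; 95% interval -0.66 to -0.14) and a KO signal 0.758 times that of WT. The limma adjusted p was 0.357.

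**Figure D1:**
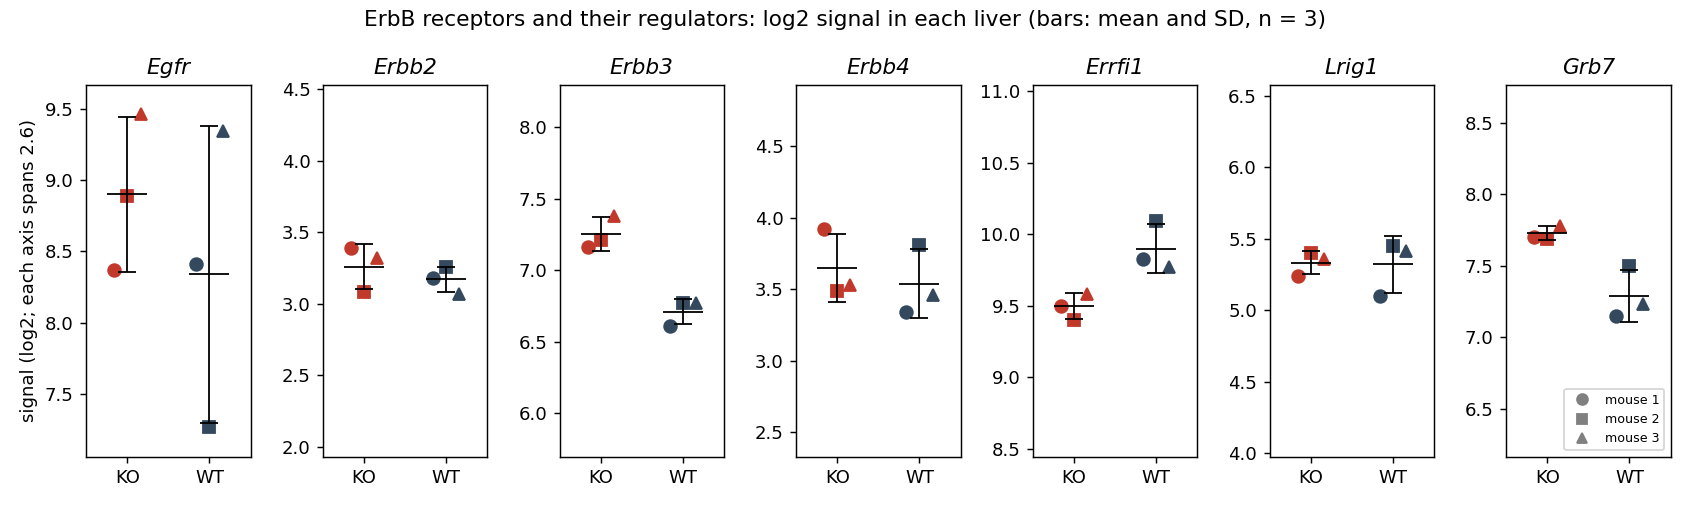
Log2 signal (vertical axis, each panel spanning 2.6) of the 7 members in 3 KO livers (red, left) and 3 WT livers (dark, right), with the mean and SD of each genotype; symbols mark mouse 1, 2 and 3. Erbb3 and Grb7 lie higher and Errfi1 lower in all KO livers, while Egfr spreads from 7.27 to 9.34 within WT alone.

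These 3 members, 2 higher and 1 lower in KO, were those without overlap between the genotypes. Among all genes tested 14.8% had no overlap, 9.63% as higher and 5.16% as lower in KO. The same 3 members had an unadjusted limma p under 0.05. Since their values did not overlap, leaving out or weighting mice could not turn their directions. The directions also held with both other scalings of the arrays, quantile normalization and median centring. The limma adjusted p stayed above the threshold in each of the 15 alternatives. With 1 mouse left out, Erbb3 ranged from 0.47 to 0.58, Grb7 from 0.36 to 0.54 and Errfi1 from -0.46 to -0.30. In whole liver, fewer cells of a type and less RNA per cell cannot be told apart.

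Egfr, the receptor for EGF and its relatives, had the largest mean difference of the 7 and the largest spread. Its signal was 8.37, 8.89 and 9.46 in KO mice 1 to 3, against 8.41, 7.27 and 9.34 in WT mice 1 to 3. The genotypes overlapped widely, with WT mouse 2 lowest and KO mouse 3 highest of all 6. The difference of 0.56 ± 0.47 (SE; 95% interval -0.51 to 1.63) was well within the spread between mice (limma adjusted p = 0.752). Leaving out WT mouse 2 brought it to 0.03, and leaving out WT mouse 3 brought it to 1.06.

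Hepatic Egfr is known to be higher in male than in female mice, so a list of genes with male-biased liver expression was set beside it, added after the Egfr values were seen. The mean of its 11 genes tested, each centred on its own mean over the 6 mice, was -0.42, 0.38 and 0.89 in KO mice 1 to 3, against -0.03, -1.16 and 0.34 in WT mice 1 to 3. As for Egfr, WT mouse 2 was lowest and KO mouse 3 highest. Hsd3b5 and Slco1a1, picked with their values in view, weighed most in the low mean of WT mouse 2. There Hsd3b5 was at 1.51, against 3.24 to 7.74 in the other 5 mice, and Slco1a1 at 4.31, against 7.61 to 8.97. Elovl3, a fatty acid elongase and the gene of smallest p in the list, was at 7.33 in WT mouse 2 and 8.07 to 8.96 in the other 5 mice. Not every gene of the list followed. Cyp4a12a, a cytochrome P450 picked with its values in view, was at 6.27, 5.86 and 6.84 in KO mice 1 to 3, against 6.12, 6.55 and 6.81 in WT mice 1 to 3, so WT mouse 2 was not low for it. Its part in the Egfr spread was not tested. Erbb3, Grb7 and Errfi1 did not show the low value of WT mouse 2 that Egfr had.

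Erbb2, the partner receptor, was at 3.39, 3.08 and 3.32 in KO mice 1 to 3, against 3.18, 3.26 and 3.07 in WT mice 1 to 3. The values overlapped, and the difference of 0.09 ± 0.11 (SE; 95% interval -0.16 to 0.35) did not exceed the spread (limma adjusted p = 0.847). Erbb4, a neuregulin receptor, was at 3.92, 3.49 and 3.53 in KO mice 1 to 3, against 3.34, 3.81 and 3.46 in WT mice 1 to 3, a difference of 0.11 ± 0.16 (95% interval -0.25 to 0.47). KO mouse 1 and WT mouse 2 were the high ones, and without KO mouse 1 the difference was -0.03. Both genes were close to 2.99, the lowest mean signal of a gene tested, where background takes up more of a signal and compresses its differences.

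Lrig1 was at 5.24, 5.40 and 5.36 in KO mice 1 to 3, against 5.10, 5.45 and 5.41 in WT mice 1 to 3. The difference was 0.01 ± 0.12 (SE; 95% interval -0.26 to 0.28), and it turned below 0 in 5 of the 15 alternatives, with quantile normalization (-0.04) and median centring among them. KO and WT overlapped for Lrig1, and WT mouse 2 was the highest of the 6 mice for it, as it was for Errfi1. Whether the 2 inhibitors differed in their response was not tested.

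**Figure D2:**
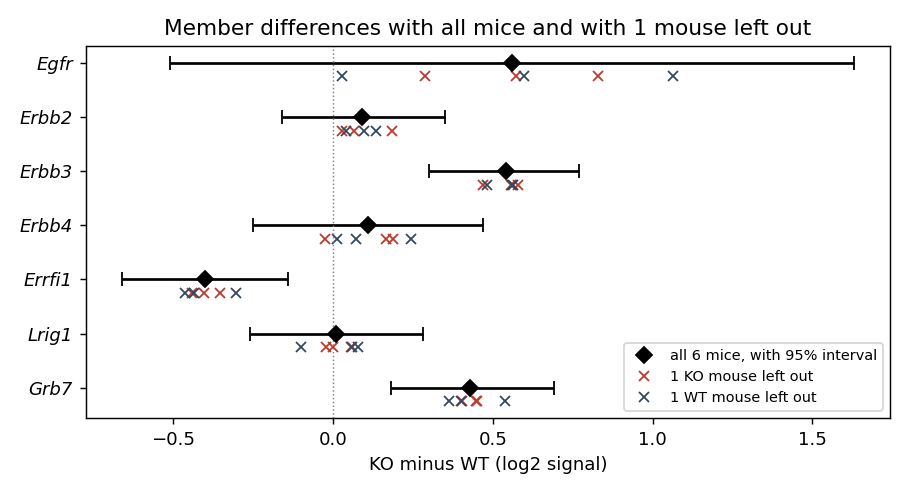
KO minus WT difference in log2 signal (horizontal axis) of each member with all 6 mice (diamonds, with 95% interval from limma) and with 1 KO mouse (red crosses) or 1 WT mouse (dark crosses) left out. Erbb3, Grb7, Errfi1, Egfr and Erbb2 stay on 1 side of 0 and Erbb4 and Lrig1 cross it; Egfr moves most, between 0.03 and 1.06.

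Erbb3 was also set against its paralogues within each array, so that a shift shared by a whole array drops out. The size of such a within-array value depends on the probes, and only its change between genotypes can be read. Erbb3 minus Erbb2 was 3.77, 4.13 and 4.07 in KO mice 1 to 3, against 3.43, 3.51 and 3.69 in WT mice 1 to 3. All KO values were higher, by 0.44 ± 0.14 on average (SE, n = 3 each). Erbb2 itself was nearly level, so this value largely restates the Erbb3 difference for which the set was chosen, and no test of it is used. Erbb3 minus Erbb4 was 3.24, 3.72 and 3.85 in KO mice 1 to 3, against 3.27, 2.96 and 3.30 in WT mice 1 to 3. Here KO mouse 1 fell among the WT values, and the difference was 0.43 ± 0.21 (SE). Erbb3 minus Egfr was -1.21, -1.68 and -2.08 in KO mice 1 to 3, against -1.80, -0.50 and -2.58 in WT mice 1 to 3. The values overlapped, and the difference of -0.03 ± 0.66 (SE) had an error too large to show a shift in either direction. Against the mean of the 3 paralogues Erbb3 differed by 0.28 ± 0.16 (SE), again with overlap. With 3 against 3 mice an exact permutation p cannot go below 0.1, so whether Erbb3 changed more than its paralogues could not be decided by such a test.

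**Figure D3:**
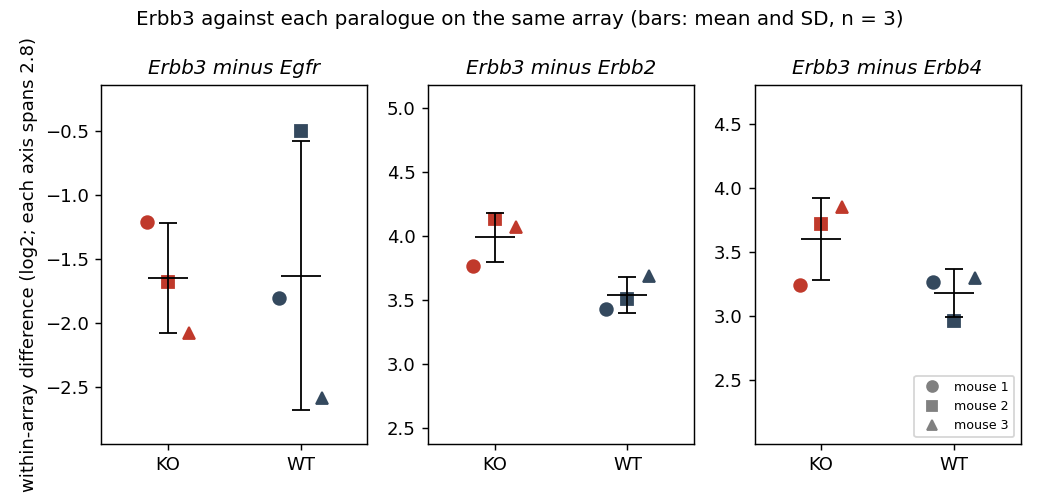
Log2 signal of Erbb3 minus that of each paralogue on the same array (vertical axis, each panel spanning 2.8) in 3 KO livers (red, left) and 3 WT livers (dark, right), with mean and SD. KO and WT separate against Erbb2 and overlap against Egfr and Erbb4.

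The ligands that drive these receptors were mostly weak on these arrays. Of 11 ligand genes, 10 had a single-gene probe set and 3 were tested, with 0 of 3 at an unadjusted limma p under 0.05. Hbegf, heparin-binding EGF-like growth factor, was at 3.36, 3.06 and 3.29 in KO mice 1 to 3, against 3.58, 3.60 and 3.21 in WT mice 1 to 3, and WT mouse 3 fell among the KO values (difference -0.23 ± 0.13, SE). Nrg4, a neuregulin, and Tgfa, an EGF receptor ligand, both differed by 0.05 ± 0.14. Egf, Ereg, Epgn, Btc, Nrg1, Nrg2 and Nrg3 lay under the signal filter, with group means of 1.89 to 2.83 in KO and 1.98 to 2.90 in WT. Nrg2, a neuregulin, was the ligand without overlap, at 2.40, 2.66 and 2.56 in KO mice 1 to 3, against 3.04, 2.75 and 2.92 in WT mice 1 to 3. That signal lies near background, and in the fit of all genes without the filter its limma adjusted p was 0.478. Areg was not analysed here. Among the proteases and cofactors that release ligands, 8 of 12 listed genes were tested and 0 had an unadjusted p under 0.05, with a median difference of 0.019. Bace2 and Adam15, membrane proteases, had the smallest p-values there, at -0.21 ± 0.11 and -0.12 ± 0.11 (SE).

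Downstream of the receptors, 32 of 45 listed adaptors and kinases were tested. Their median difference was 0.013, against 0.027 for all genes tested. An unadjusted limma p under 0.05 was found for 1 of 32, against 9.13% of all genes tested. That gene was Nras, a RAS protein upstream of ERK, at 5.41, 5.39 and 5.23 in KO mice 1 to 3, against 5.77, 5.50 and 5.53 in WT mice 1 to 3. All its KO values were lower, at -0.26 ± 0.11 (SE; limma adjusted p = 0.522). Akt2, the main AKT kinase of hepatocyte insulin signalling, and Braf, a RAF kinase, also did not overlap, at 0.23 ± 0.11 and 0.18 ± 0.10. Among the 32 genes, 2 were thus higher and 1 lower in KO without overlap, where 9.63% and 5.16% of all genes tested were. The adaptors Grb2 and Shc1, which link receptors to RAS, were at -0.05 ± 0.10 and 0.01 ± 0.09. Akt2, Braf, Grb2 and Shc1 fall outside the naming rule and were picked with their values in view.

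Of 40 listed genes for receptor degradation, trafficking and chaperoning, 36 were tested, with a median of 0.075. An unadjusted limma p under 0.05 was found for 1 of 36, against 9.13% of all genes tested. That gene was Rnf41 (also called Nrdp1), the ubiquitin ligase known to direct degradation of the ErbB3 protein. It measured 5.03, 5.01 and 5.0 in KO mice 1 to 3, against 5.30, 5.39 and 5.11 in WT mice 1 to 3. All KO values lay below all WT values, the direction opposite to that of Erbb3, and a link between the 2 genes was not tested. The difference was -0.25 ± 0.10 (SE; 95% interval -0.48 to -0.03) and did not pass over all genes (limma adjusted p = 0.507). The ligase Cblc, the kinase cochaperone Cdc37 and the phosphatase Ptprk had no overlap in the other direction, at 0.18, 0.14 and 0.21, and were picked with their values in view. Among the 36 genes, 3 were thus higher and 1 lower in KO without overlap, where 9.63% and 5.16% of all genes tested were.

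Other receptor tyrosine kinases give a measure of what receptors of this class did in the same livers. Of 45 listed, 23 were tested, with a median difference of 0.065 and a range of -0.22 to 0.53. An unadjusted p under 0.05 was found for 1 of 23, Fgfr3, an FGF receptor, at 4.27, 4.82 and 4.21 in KO mice 1 to 3, against 3.94, 4.08 and 3.70 in WT mice 1 to 3. Its difference of 0.53 ± 0.18 (SE; limma adjusted p = 0.423) was as large as that of Erbb3 but with a wider spread between mice. Fgfr2, at 0.26 ± 0.13, was the other receptor without overlap. Among the 23 receptors, 2 were thus higher and 0 lower in KO without overlap, where 9.63% and 5.16% of all genes tested were. The share of all genes tested with an unadjusted limma p under 0.05 was 9.13%. The insulin receptor Insr and the hepatocyte growth factor receptor Met, picked with their values in view, as was Fgfr2, were at 0.05 ± 0.10 and -0.04 ± 0.10.

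**Figure D4:**
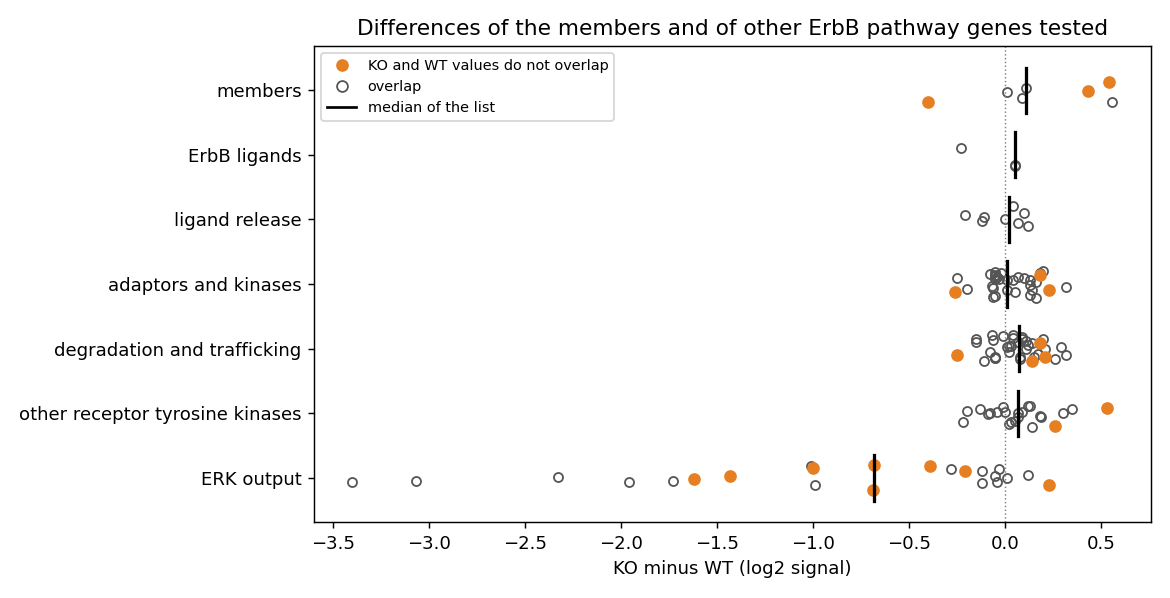
KO minus WT difference in log2 signal (horizontal axis) of each gene tested in 7 groups. These are the members, lists of the ErbB pathway and its ERK output, and the other receptor tyrosine kinases. Filled points have no overlap between KO and WT and black lines are medians; medians lie between 0.013 and 0.11 except for ERK output at -0.678.

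Genes induced by ERK activity were read beside Errfi1, which belongs to that class. Of 25 listed, 23 were tested, with a median difference of -0.678. An unadjusted limma p under 0.05 was found for 14, all 14 lower in KO, where 2.98% of all genes were. The list was chosen with earlier results of these data known, so the count is a description. Ier3, Dusp6, Dusp5 and Egr2 had the smallest p-values, at -0.39, -1.0, -0.68 and -1.62, and 0 of 23 passed over all genes in limma. The differences were uneven, from -3.4 to 0.23, with 20 genes below and 3 above 0. Egr1, Spry2 and Spred1, picked with their values in view, were at -3.4, -0.03 and 0.23. For Egr1, WT mouse 3 was at 4.08, within the KO values of 3.46 to 4.48. The mean of the 23 genes, each centred over the 6 mice, was -0.40, -0.51 and -0.45 in KO mice 1 to 3, against 0.77, 1.04 and -0.45 in WT mice 1 to 3. WT mouse 3 thus sat among the KO mice for the list mean, while its Errfi1 value, 9.77, stayed above every KO value. The same held for 7 of the 23 genes, which were lower in KO without overlap, where 5.16% of all genes were. Ier3, Dusp6, Dusp5 and Egr2 were among these 7, and 1 of the 23 was higher in KO without overlap. WT mouse 2 was the highest of the 6 in both. Without WT mouse 3 the Errfi1 difference was -0.46, and without WT mouse 2 it was -0.30.

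**Figure D5:**
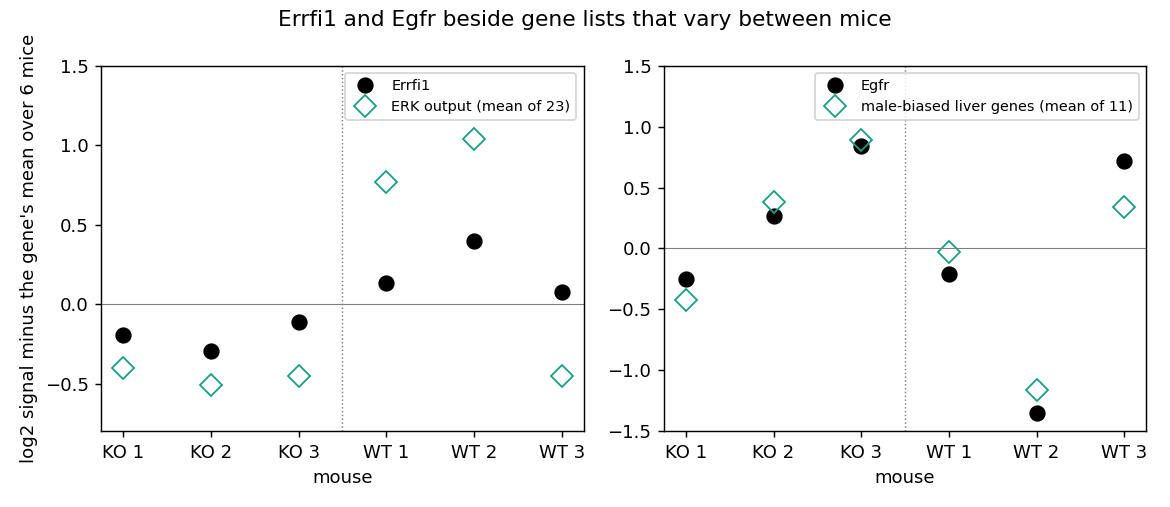
Log2 signal minus the mean over 6 mice (vertical axis) for Errfi1 beside the mean of 23 ERK output genes (left), and for Egfr beside the mean of 11 male-biased liver genes (right), in KO mice 1 to 3 and WT mice 1 to 3. WT mouse 3 is at -0.45 for ERK output, among the KO mice, and WT mouse 2 is lowest for both Egfr and the male-biased genes.

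The Errfi1 promoter is shown because Errfi1 was the member lower in KO and belongs to a class of rapidly induced genes. RefSeq windows (GRCm38.p6) of 250 bases before to 50 after a start site were on hand for 5 of the 7 members, Egfr, Erbb2, Erbb4, Errfi1 and Lrig1, with 6 windows in all. They were searched on both strands for the cAMP response element TGACGTCA, the AP-1 motif TGANTCA, the EGR motif GCGTGGGCG and the FoxO motif TGTTTAC. The only match was 1 TGACGTCA in the downstream of the 2 Errfi1 windows, with its first base 51 bases before the start site. That motif occurs in 1.79% of all 32851 windows, the AP-1 motif in 7.81%, the EGR motif in 0.612% and the FoxO motif in 3.65%. The window, at chr4:150854820-150855119 on the + strand, has the match in capitals.
Errfi1: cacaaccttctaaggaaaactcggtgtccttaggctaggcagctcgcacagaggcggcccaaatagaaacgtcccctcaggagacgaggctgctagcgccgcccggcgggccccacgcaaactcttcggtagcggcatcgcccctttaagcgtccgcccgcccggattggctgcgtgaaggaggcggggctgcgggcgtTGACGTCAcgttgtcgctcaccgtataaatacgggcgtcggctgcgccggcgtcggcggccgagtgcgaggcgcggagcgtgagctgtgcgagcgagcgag

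In the reference gene order, Grb7 lies near Erbb2, with Mien1 between them, and the neighbours lay closer to 0. Erbb2, Mien1 and Pgap3 were at 0.09, 0.07 and -0.08, against 0.43 for Grb7. Next to Erbb3 lie Pa2g4, which encodes an ErbB3-binding protein, and Rps26, a ribosomal protein gene. Pa2g4 was at 0.20 ± 0.10 (SE; limma adjusted p = 0.605), with overlap between the genotypes, and Rps26 at 0.01 ± 0.16. Beside Errfi1, Park7 was at -0.01 ± 0.08 and Slc45a1, under the signal filter, at 0.05. Beside Egfr, Sec61g, a subunit of the endoplasmic reticulum translocon, was at 0.29 ± 0.12 (SE; limma adjusted p = 0.528) without overlap between the genotypes, and Fbxo48, under the filter, was at 0.06. Of the 7 members, 0 lie on the chromosome that holds Gpr146. Directly beside Lrig1 and Erbb4, the genes tested were Slc25a26 at -0.04 and Cps1 at -0.08.

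Across the 6 arrays, the genes most like Erbb3 among 3084 tested genes with a range of at least 0.5 were Cobl, Phf21a, Fam222b, Proser3 and Hdac5. Their Pearson correlations with Erbb3 were 0.994, 0.992, 0.986, 0.978 and 0.977 over 6 arrays, a description of 6 points that fall into the 2 genotypes. Cobl, an actin nucleator, was at 4.76, 4.82 and 4.99 in KO mice 1 to 3, against 4.26, 4.46 and 4.47 in WT mice 1 to 3. Hdac5, a class IIa histone deacetylase, was at 6.66, 6.53 and 6.75 in KO mice 1 to 3, against 6.11, 6.19 and 6.17 in WT mice 1 to 3. Both separated the genotypes, which largely follows from their selection by correlation with Erbb3. Neither passed over all genes (limma adjusted p = 0.306 and 0.245). The genes most like Errfi1 were BC023105, Gbp10, Sult1b1, Cnn2 and Mt1, with correlations of 0.968 to 0.976. Gbp10, a guanylate-binding protein, was at -0.77 and Mt1, a metallothionein, at -0.88.

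Markers of other cells that express these receptors were checked in the same arrays. Of 10 bile duct markers, 8 were in the table and 2 tested, with Krt19, Epcam and Cftr under the filter. The mean signal of the 2 tested, Sox9 and Krt7, was 4.85, 4.66 and 4.73 in KO mice 1 to 3, against 4.29, 4.65 and 4.46 in WT mice 1 to 3, with no overlap and a median difference of 0.279. The mean of the 2 thus ran in the same direction as Erbb3 and Grb7, with the lowest KO value, 4.66, barely above the highest WT value, 4.65. Krt7 by itself overlapped, at 3.52, 3.20 and 3.61 in KO mice 1 to 3, against 3.20, 3.49 and 3.18 in WT mice 1 to 3. Over all 8, of which 6 lay under the filter, the mean signal was 2.86 to 3.00 in KO livers, against 2.85 to 2.95 in WT livers, and overlapped. Sox9, which is also found in periportal hepatocytes, was at 6.19, 6.12 and 5.85 in KO mice 1 to 3, against 5.38, 5.80 and 5.74 in WT mice 1 to 3, with all KO values higher by 0.41 ± 0.14 on average (SE; limma adjusted p = 0.437). The part of the bile duct markers in the differences of Erbb3 and Grb7 was not tested. Schwann cells, which depend on Erbb3, were represented by 8 markers in the table, of which Foxd3 alone was tested and Sox10 lay under the filter. Their mean signal was 2.41 to 2.49 in KO, against 2.47 to 2.63 in WT. With 7 of the 8 under the filter, these values cannot show whether that cell type differed.

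Markers of the remaining cell types overlapped between genotypes as list means, with 10 genes tested in each of the 3 lists of resident cells. Kupffer cell markers had a median of 0.153, with 7 genes above and 3 below 0. Clec4f and Adgre1, of smallest p, were at 0.23 and 0.17, while Marco, picked with its values in view, was at -0.29. The mean signal of that list was 5.23 to 5.77 in KO, against 5.10 to 5.84 in WT. Sinusoidal endothelial markers had a median of 0.04 and a mean signal of 5.59 to 5.74 in KO and 5.52 to 5.80 in WT. Dnase1l3 was at -0.31, with 6 genes of that list above and 4 below 0. Stellate and fibroblast markers had a median of -0.08, a mean signal of 5.18 to 5.46 in KO and 5.06 to 5.56 in WT, with 5 genes above and 5 below 0. Col3a1 and Col1a2, collagen genes with the smallest p-values of that list, were at -0.31 and -0.26, while Pdgfrb, a receptor picked with its values in view, was at 0.35. The 3 pancreatic acinar markers tested, with Try4 at -0.51, had a mean signal of 3.59 to 3.87 in KO and 3.75 to 4.93 in WT, highest in WT mouse 1. Of the fat cell markers 2 were tested, with Cidec, which hepatocytes also express, at -0.68 and Plin1 at -0.02. The hepatocyte markers of smallest p, Serpina1a and Cps1, were at 0.09 and -0.08.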

How the data were processed

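Per the labels' protocols, liver total RNA (Trizol) was turned into biotinylated cRNA and hybridised to Affymetrix whole-transcript arrays. The authors deposited log2 values for 41345 probe sets in 6 columns, 1 per mouse; no source used here states how they were summarised and normalized, and their scale follows from their range. Of the probe sets, 23521 carried 1 gene symbol in the platform annotation (1814 several, 16010 none), updated by Entrez number (23328 matched) to RefSeq GRCm38.p6. Each gene was represented by its probe set of highest mean signal, and the 11090 genes with a mean of at least 2.99 were tested. KO and WT were compared by a two-sided moderated linear model without covariates (limma 3.58.1 under R 4.3.3). Benjamini-Hochberg adjustment ran over all genes tested, with a threshold of 0.05. The script was tested on simulated data with 200 changed genes, whose changes were larger than any member difference here. That run does not show how well differences of the members' size are found. The median SE of a difference was 0.11; the number of arrays limits the precision. Within-array differences of Erbb3 are given without a test, since Erbb3 was chosen for its difference. Alternatives covered the filter, probe set averaging, quantile normalization, median centring, a pseudocount of 8 on the linear scale, trend and robust options, array weights, the replicate block and each mouse left out.

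The members and lists were chosen with earlier results of these data known. The rule for named genes took all members and ligands; in every other list up to 4 genes with an unadjusted p under 0.05, otherwise the 2 of smallest p; the 5 genes most correlated with Erbb3 and with Errfi1; Gpr146 and Alb. Direct neighbours in the gene order were named by position.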

Additional observations from a re-analysis of the deposited data

How the results depend on the processing

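Erbb3 stayed between 0.47 and 0.58 in all 15 alternatives (limma adjusted p between 0.125 and 0.474), with 0.54 in the fit with the replicate block (adjusted p = 0.228). The main fit did not pair same-numbered mice. Their deviations correlated at 0.06, -0.19 and 0.15, which cannot show whether any mice were paired by design. The count of genes past the threshold, 4 of 11090, was 1 with the replicate block, 1 with a pseudocount of 8 and 0 in the upper 25% of signal, where limma gave 567 of 5545 genes an unadjusted p under 0.05; it ran from 1 to 51 with a mouse left out, the 51 without WT mouse 3. Erbb3 against the mean of its paralogues was -0.03 in the upper 25% of signal, where only Egfr is left as a paralogue, 0.17 without WT mouse 3, 0.43 without WT mouse 2 and 0.28 with the replicate block. Lrig1 turned to -0.043 with quantile normalization, -0.003 with median centring, and -0.022, -0.001 and -0.101 without KO mouse 2, KO mouse 3 or WT mouse 1. Lrig1 was highest, at 0.077, without WT mouse 2. Erbb4 turned to -0.026 without KO mouse 1 and was highest, at 0.245, without WT mouse 2. The cause of these turns was not tested beyond the mice left out. Over the alternatives, the medians of the ligand, release, adaptor and degradation lists and of the other receptor tyrosine kinases ranged from -0.069 to 0.117. That of ERK output ranged from -0.997 to -0.367. Signals of Erbb2, Erbb4 and the ligands lie near background, which limits what can be seen there.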
